A study of Mus musculus with 6 samples.

Results

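The miR-106b/93/25 cluster comprises 3 microRNA hairpins carried on 1 transcript, inside an intron of Mcm7. Its members here are the guide strands mmu-miR-106b-5p, mmu-miR-93-5p and mmu-miR-25-3p (written below without the prefix for mouse), chosen by name among the 1247 mouse miRNAs on the arrays. They were read by 6 of the 3105 probes. The samples were sorted mammary gland cells of virgin wild type mice of strain FVB/N-J (age not given in the sources used here). All groups share the gate of lineage-negative, CD24+ cells. P4 took the cells with high CD29 (integrin beta 1), labelled as enriched for mammary stem cells (MaSC), and P5 those with low CD29, labelled as luminal or luminal progenitor enriched. Each population had 3 single-colour arrays, and the design compares the populations. Such a gate is an enrichment, not a pure cell type, and P4 is known also to hold the basal, contractile layer.

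Mcm7 encodes a subunit of the helicase that unwinds DNA at replication forks, and both the gene and the miRNAs in its intron are known to be induced by E2F factors as cells enter the cycle. miR-106b and miR-93 carry the seed of the miR-17 family, known to repress the cell cycle inhibitor p21 (Cdkn1a), and miR-25 carries the seed of the miR-92 family, known to repress the pro-apoptotic Bim (Bcl2l11). The cluster is a paralogue of the clusters of miR-17 to miR-92a and of miR-106a to miR-363. A miRNA finds its targets mainly by its seed, bases 2 to 8 from the 5′ end.

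The hairpins are shown first because they give the order on the transcript and the arm that was measured. In RefSeq's sequences (GRCm38.p6) all 3 lie on the minus strand of chromosome 5 within Mcm7 and span 498 bases, with Mir106b first in the direction of transcription, then Mir93, then Mir25. The gaps between them are 126 and 118 bases. The array files name the older mouse build mm9 and give no probe positions. Capitals mark the guide strand, which lies on the 5′ arm of the first 2 hairpins and on the 3′ arm of Mir25.
Mir106b, chr5:138165737-138165818: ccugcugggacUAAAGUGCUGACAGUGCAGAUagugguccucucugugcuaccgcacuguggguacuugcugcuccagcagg
Mir93, chr5:138165523-138165610: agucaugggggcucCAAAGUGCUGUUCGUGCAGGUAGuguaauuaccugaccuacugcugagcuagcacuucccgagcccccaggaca
Mir25, chr5:138165321-138165404: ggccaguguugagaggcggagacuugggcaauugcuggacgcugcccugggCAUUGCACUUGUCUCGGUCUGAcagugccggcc

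The mature sequences are shown to set the members beside their seed relatives, with the seed in capitals. miR-106b-5p and miR-93-5p share the seed AAAGUGC with 5 relatives on other chromosomes in the RefSeq table. Of these miR-6383, which belongs to neither paralogue cluster, was not among the listed relatives. It was detected on 1 of 6 arrays, so it could not be tested, and its sequence is not shown.
miR-106b-5p: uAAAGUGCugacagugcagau
miR-93-5p: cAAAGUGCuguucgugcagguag
miR-17-5p: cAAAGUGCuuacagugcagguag
miR-20a-5p: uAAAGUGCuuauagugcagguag
miR-20b-5p: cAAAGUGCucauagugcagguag
miR-106a-5p: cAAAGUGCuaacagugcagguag
miR-25-3p shares the seed AUUGCAC with 5 relatives.
miR-25-3p: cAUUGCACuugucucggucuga
miR-92a-3p: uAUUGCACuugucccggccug
miR-92b-3p: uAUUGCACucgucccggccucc
miR-32-5p: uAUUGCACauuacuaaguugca
miR-363-3p: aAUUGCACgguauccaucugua
miR-367-3p: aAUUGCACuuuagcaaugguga
Aligned at the first base without gaps, miR-106b-5p differs from miR-93-5p at 5 of 21 bases and from both miR-17-5p and miR-20a-5p at 3 of 21. miR-93-5p differs from miR-20b-5p at 3 of 23 bases, and miR-25-3p from miR-92a-3p at 3 of 21. How far probes of such close relatives take up each other's label was not tested.

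All 3 guide strands gave lower signal in P4 than in P5, and the difference passed the test for miR-93-5p and miR-25-3p. miR-93-5p was 1.91-fold and miR-25-3p 1.88-fold higher in P5, while miR-106b-5p was 1.49-fold higher and did not pass. Each was detected on all 6 arrays, and its weakest value stood 22.7-fold to 25.7-fold above the floor set for undetected signal. Values below are log2 of the background-subtracted signal after scaling to the array's own 75th percentile, taken over miRNAs that every array detected, so that 0 is the scaling signal of the array. The number of arrays limits the precision. The labels do not state that replicates are separate mice or sorts. The p-values therefore cover only how far these arrays scatter, which may be a technical spread. In sorted bulk RNA, fewer cells holding a miRNA and less of it per cell cannot be told apart.

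For miR-93-5p, which lies in the middle of the cluster, the log2 scaled signal was -0.88, -0.50 and -0.99 on P4 replicates 1, 2 and 3 and -0.036, 0.45 and 0.022 on P5 replicates 1, 2 and 3. The populations did not overlap, and replicate 2 was the highest array of each. The means were -0.79 ± 0.25 in P4 and 0.14 ± 0.26 in P5 (SD, n = 3 each), a log2 difference of -0.93 ± 0.20 (SE; 95% confidence interval -1.41 to -0.45; adjusted p = 0.0118, limma).

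For miR-25-3p the values were -0.96, -0.84 and -0.94 on the P4 arrays and -0.068, 0.22 and -0.15 on the P5 arrays. This member had the tightest P4 arrays of the 3, with an SD of 0.065 there against 0.20 in P5. Its difference was -0.91 ± 0.16 (95% confidence interval -1.28 to -0.54; adjusted p = 0.00433, limma).

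For miR-106b-5p, the first hairpin, the values were -0.34, -0.21 and -0.81 on the P4 arrays and 0.11, 0.26 and -0.029 on the P5 arrays. The populations did not overlap here either, but P4 replicate 3 lay well below the other P4 arrays. The difference was -0.57 ± 0.20 (95% confidence interval -1.04 to -0.11; adjusted p = 0.0722, limma), and it was -0.40 without P4 replicate 3 (adjusted p = 0.118, limma). The call of miR-106b-5p lay close to the threshold of 0.05, and 5 of 23 alternative settings called it (adjusted p = 0.0443 to 0.0484, limma).

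**Figure D1:**
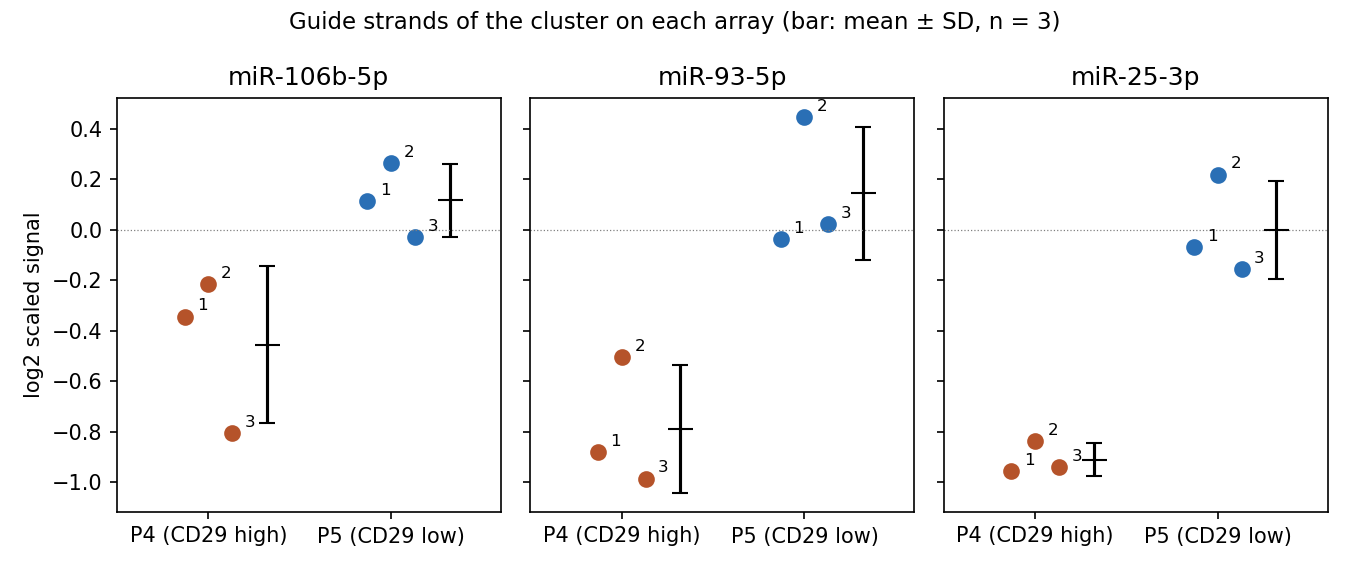
Log2 scaled signal of each guide strand (y axis) on the 3 arrays of P4 and of P5, each point marked with its replicate number, with the mean ± SD (n = 3) as a black bar. In all 3 panels every P4 point lies below every P5 point, and P4 replicate 3 of miR-106b-5p stands apart at -0.81.

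The test (limma, adjusted p under 0.05) called 14.1% of the 370 miRNAs lower in P4 and 13.8% higher. Among the 3 members 2 were lower and 0 higher. All 3 had populations that did not overlap with P4 below, as had 21.6% of the tested miRNAs. With 3 members these shares are a description only. The median log2 difference was -0.91 over the members and 0.0013 over all tested miRNAs. Ranked from the most negative difference, miR-93-5p was at 33, miR-25-3p at 36 and miR-106b-5p at 65 of 370.

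In unscaled processed signal the mean differences were larger and the arrays of a population lay further apart. miR-93-5p gave 101, 270 and 138 intensity units on the P4 arrays and 513, 623 and 320 on the P5 arrays. miR-25-3p gave 95.9, 214 and 143 units in P4 and 502, 532 and 283 in P5. miR-106b-5p gave 146, 329.6 and 156 units in P4 and 569, 549 and 309 in P5, so that here, unlike after scaling, the populations of miR-106b-5p overlapped, with P4 replicate 2 above P5 replicate 3. Part of that gap is shared by the array as a whole, since the scaling signal was 186 to 382 units on P4 arrays and 315 to 526 on P5 arrays. With no scaling the differences were -1.59 for miR-93-5p, -1.56 for miR-25-3p and -1.23 for miR-106b-5p, and all 3 passed (adjusted p = 0.0173, 0.014 and 0.0457, limma). The median of all tested miRNAs was then -0.64, and relative to it the members stood at -0.95, -0.92 and -0.59. Scaling moves every miRNA of an array alike, so these relative values are nearly fixed by construction.

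Each member was read by 2 probes with 20 spots each. Both probes of a member gave nearly the same difference. For miR-106b-5p they gave -0.57 and -0.58, for miR-93-5p -0.92 and -0.95, and for miR-25-3p -0.89 and -0.94. Over spots of 1 probe on 1 array the coefficient of variation was 2.27% to 12.1% with a median of 4.78%. Of the 720 spots of the members on the 6 arrays, 25 carried an outlier flag and were left out. On P4 replicate 3 a flagged spot of miR-93-5p read 6757 units, where the other spots of that probe read 106 to 145. Left in, it raised the mean of that probe from 128 to 459 units. With the flagged spots of all miRNAs kept and the arrays scaled anew, the difference of miR-93-5p was -0.64 (adjusted p = 0.157, limma). That alternative was chosen after this spot was seen, and the spot was not restored alone.

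**Figure D2:**
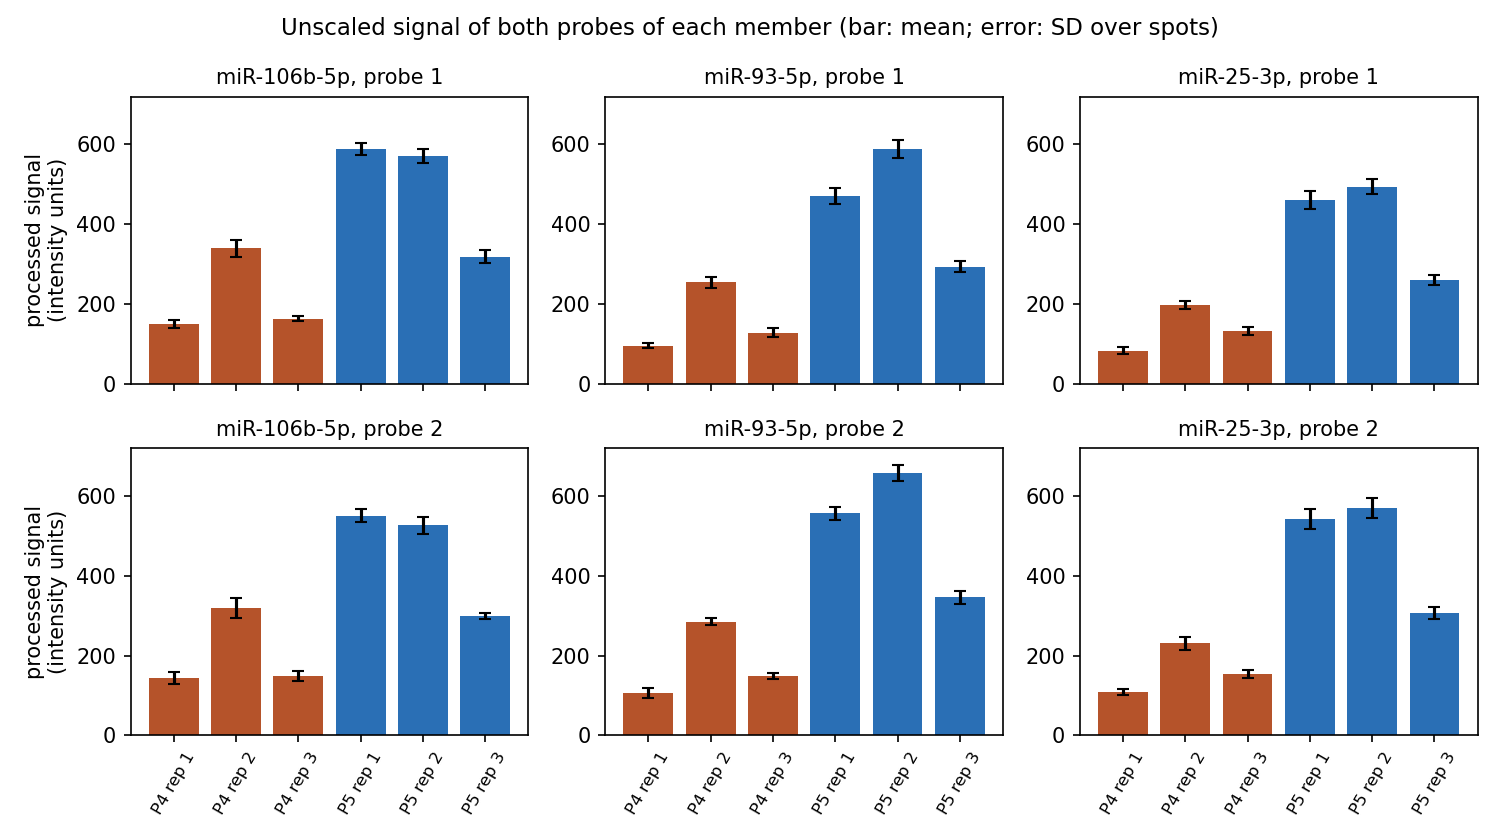
Unscaled processed signal in intensity units (y axis) of both probes of each guide strand on the 6 arrays, P4 in orange and P5 in blue. Bars are means and error bars the SD over the spots of that probe without flagged outliers. Both probes of a member show the same order of arrays, and P4 replicate 1 is the lowest in every panel.

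The slide and the scan were common to all 6 arrays. Row 1 of the slide carried every P4 array together with P5 replicate 1, and row 2 carried P5 replicates 2 and 3. Within row 1, which leaves P5 replicate 1 as the only P5 array, the differences were -0.75 for miR-93-5p, -0.84 for miR-25-3p and -0.57 for miR-106b-5p (adjusted p = 0.164, 0.0778 and 0.251, limma with the array row as a block). No member passed with that single P5 array.

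The opposite strands of the hairpins were at background. miR-106b-3p, miR-93-3p and miR-25-5p were detected on 0 of 6 arrays, and their scaled signal was between -0.0156 and 0.00404, against 0.505 to 1.36 for the guide strands. No difference between the populations can be given for them. The array therefore measured the cluster through the guide strand of each hairpin alone.

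Since the hairpins come from 1 transcript, the differences of the members were compared within arrays. The gap between miR-93-5p and miR-25-3p was 0.12 ± 0.19 in P4 and 0.15 ± 0.10 in P5 (SD, n = 3), so their differences between the populations were apart by -0.025 ± 0.13 (SE; exact permutation p = 1, two-sided, adjusted p = 1). The difference of miR-106b-5p was nearer to 0 than that of miR-93-5p by 0.36 ± 0.14 (exact permutation p = 0.1, adjusted p = 0.167), and than that of miR-25-3p by 0.34 ± 0.17 (exact permutation p = 0.2, adjusted p = 0.25). These p-values are adjusted over 10 pairs of miRNAs, and 0.1 is the smallest that 3 arrays against 3 allow, so no pair could pass and these p-values neither show nor exclude unequal differences. With the flagged spots kept, the gap between the differences of miR-106b-5p and miR-93-5p was -0.0093, so the size of that contrast rests on leaving out flagged spots, the bright one among them.

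The listed relatives of miR-106b and miR-93 by seed were lower in P4 as well. Of the 4 listed, 3 were tested and all 3 were called lower, with a median difference of -1.34. Of all tested miRNAs 14.1% were called lower in P4. miR-17-5p, the founding member of the family, differed by -1.14 ± 0.25 (adjusted p = 0.0115), miR-20a-5p from the same cluster by -1.34 ± 0.22 (adjusted p = 0.00363) and miR-20b-5p from the X-linked paralogue by -1.37 ± 0.22 (adjusted p = 0.00345, limma throughout). miR-106a-5p was not matched to a probe on the array. The fitted differences of these relatives were larger than those of the members, but no pair could pass the exact test. Within arrays, the difference of miR-93-5p was nearer to 0 than that of miR-20a-5p by 0.41 ± 0.06 and than that of miR-20b-5p by 0.43 ± 0.07 (exact permutation p = 0.1 each, adjusted p = 0.167). For miR-106b-5p the gaps were larger, 0.77 ± 0.20 to miR-20a-5p and 0.79 ± 0.20 to miR-20b-5p (exact permutation p = 0.1 each, adjusted p = 0.167). Against miR-17-5p they were 0.57 ± 0.24 for miR-106b-5p and 0.21 ± 0.10 for miR-93-5p (exact permutation p = 0.1 and 0.2).

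Among the relatives of miR-25, miR-92a-3p was the only other miRNA detected on all 6 arrays. Its log2 scaled signal was -2.21, -2.69 and -2.61 on the P4 arrays and -1.78, -1.36 and -1.67 on the P5 arrays, without overlap. It differed by -0.90 ± 0.19 (adjusted p = 0.0113, limma), and miR-25-3p and miR-92a-3p were apart by -0.0063 ± 0.19 (exact permutation p = 1). With normexp background correction miR-92a-3p was at -0.35 and did not pass. Detection of miR-32-5p covered the 3 P5 arrays but just 1 P4 array, so that its difference of -1.54 ± 0.35 (adjusted p = 0.0136) rests on the floor, and with normexp it was at 0.046. miR-92b-3p was detected on 2 P4 arrays and no P5 array and was not tested. miR-363-3p and miR-367-3p were detected on no array.

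Over both paralogue clusters, of miR-17 to miR-92a and of miR-106a to miR-363, 10 mature miRNAs were listed. Of these 9 were on the array, 7 could be tested and all 7 were called lower in P4, as were 14.1% of all tested miRNAs. The differences of the 7 ran from -1.57 for miR-19a-3p to -0.90 for miR-92a-3p, with a median of -1.34 against -0.91 for the miR-106b/93/25 members. The list left out the opposite strands of these hairpins. Among them miR-17-3p differed by -0.34, with populations that overlapped, and was not called (adjusted p = 0.177, limma). miR-20a-3p was lower (-1.18, adjusted p = 0.0223, limma). It was detected on all 3 P5 arrays but on 1 P4 array, so that its difference rests on the floor. miR-19b-3p differed by -1.15 ± 0.17 and miR-18a-5p by -1.46 ± 0.34 (adjusted p = 0.0161, limma). miR-18a-5p lost its call in 9 of 23 alternatives and was at -0.52 with normexp (adjusted p = 0.076, limma). miR-92a-3p lost its call in 3, miR-17-5p in 4, miR-20a-5p and miR-20b-5p in 2 each and miR-19a-3p in 1. As a second pair of miRNAs hosted by a gene of the dividing cell, miR-15b and miR-16 in an intron of Smc4 (a condensin subunit) were set beside the cluster. miR-15b-5p differed by -0.44 ± 0.14 (adjusted p = 0.0564) and miR-16-5p, which is also made from another locus, by 0.37 ± 0.16 (adjusted p = 0.13). Neither passed. Of the 23 alternatives 8 called miR-15b-5p lower (lowest adjusted p = 0.0152, limma), and quantile normalization called miR-16-5p higher (0.41, adjusted p = 0.0264, limma), whereas with no scaling miR-16-5p turned to -0.29.

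**Figure D3:**
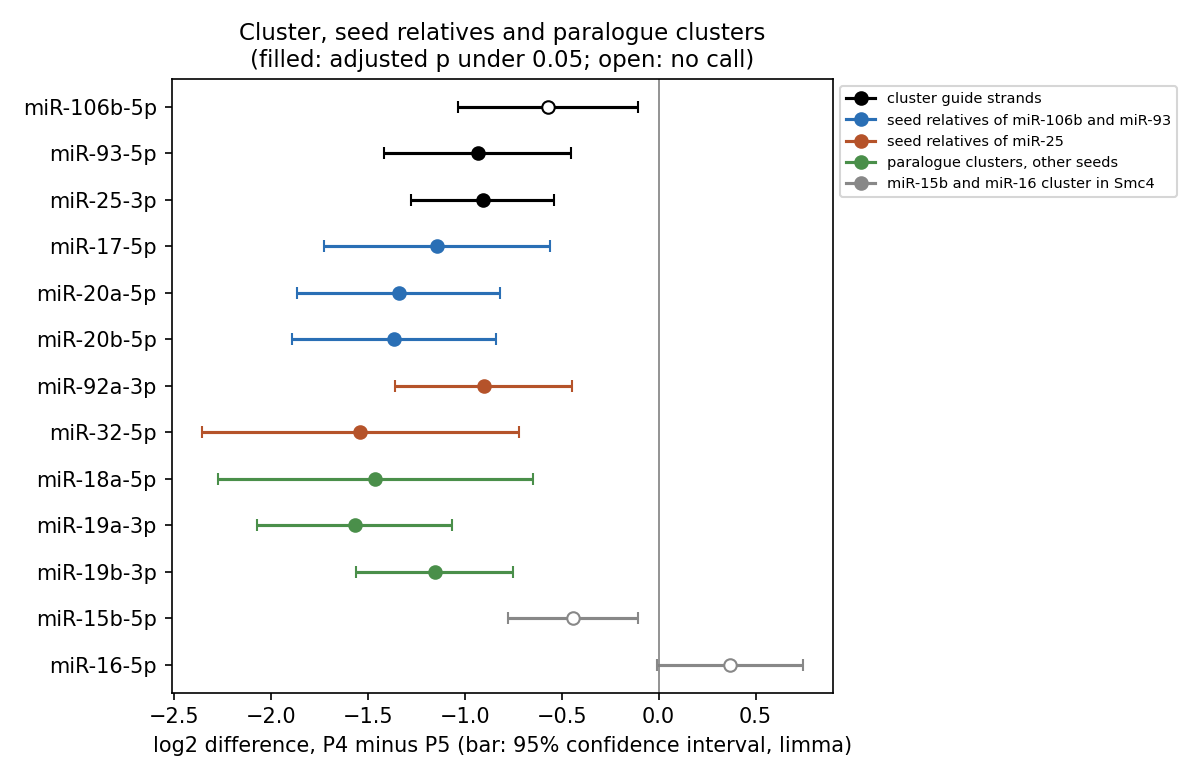
Log2 difference, P4 minus P5, of the cluster's guide strands, their seed relatives, other miRNAs of the paralogue clusters and the miRNAs hosted by Smc4, with 95% confidence intervals from limma. Filled points have an adjusted p under 0.05. All points except miR-16-5p (0.37) lie below 0, and miR-106b-5p, miR-15b-5p and miR-16-5p are open.

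The arrays' own order within each population was partly shared by these miRNAs. On P4 replicate 2, miR-106b-5p exceeded its P4 mean by 0.24, miR-93-5p by 0.29 and miR-25-3p by 0.074, and on P5 replicate 2 they exceeded their P5 means by 0.15, 0.30 and 0.22. miR-17-5p, miR-20a-5p and miR-20b-5p also lay highest on replicate 2 of each population, by 0.39, 0.36 and 0.34 in P4. In P4 miR-92a-3p went the other way, lowest on replicate 2 (-0.19 from its mean) and highest on replicate 1 (0.29). In P5 it was highest on replicate 2 (0.24). By Pearson correlation over the 6 arrays, a description since all miRNAs share arrays and populations, the miRNAs most like miR-93-5p were miR-17-5p, miR-20a-5p and miR-20b-5p (r = 0.992 each). Those most like miR-25-3p were miR-181d-5p, miR-15b-5p and miR-19a-3p (r = 0.989, 0.987 and 0.983). Those most like miR-106b-5p were miR-96-5p (0.983), miR-141-3p (0.944) and miR-183-5p (0.935). Among all other tested miRNAs miR-25-3p ranked 6 in likeness to miR-93-5p, and miR-93-5p 8 in likeness to miR-25-3p (r = 0.970). miR-93-5p ranked 8 in likeness to miR-106b-5p, and miR-106b-5p 19 in likeness to miR-93-5p (r = 0.926). The least alike pair was miR-106b-5p and miR-25-3p (r = 0.874), where miR-25-3p ranked 21 and miR-106b-5p, the other way, 46.

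The sort was checked with markers. miR-143-3p, miR-145a-5p and miR-205-5p, known from contractile and basal cells, were all higher in P4, and all 5 miRNAs of the epithelial miR-200 family were lower there (median difference -1.33) but detected on every array. Several markers of other cells were higher in P4 too. Of all tested miRNAs the test called 13.8% higher and 14.1% lower in P4. Both arms of miR-126, of endothelium, were higher, with a mean log2 scaled signal of 1.69 to 3.04 on P4 arrays and -1.67 to -0.07 on P5 arrays. Of the 6 leukocyte miRNAs 2 were higher and 4 had no call, with means over the 6 of -2.71 to -1.61 against -3.61 to -3.32. Of those without a call, miR-142-3p, miR-142-5p and miR-155-5p had populations that overlapped. All 3 tested mesenchymal miRNAs were higher, with means of -1.65 to -0.25 against -4.75 to -4.42, while miR-214-3p was detected nowhere. Of the muscle miRNAs 3 were higher in P4 and detected on no P5 array, and miR-206-3p was detected nowhere. The P5 values of these 3 are the floor itself, so the sizes of their differences rest on it. Of the erythroid list, miR-144-3p and miR-144-5p were detected nowhere. miR-451a was detected on 2 P4 and 2 P5 arrays and was not tested (means -4.57 and -5.27, without overlap). miR-126, the leukocyte mean and the mesenchymal mean were highest on P4 replicate 3, where miR-106b-5p and miR-93-5p were lowest and miR-25-3p was not. Within the leukocyte list miR-223-3p (-2.57) and miR-146a-5p (-3.24) went the other way and were lowest there among the P4 arrays. The means of the miR-200 family (0.31 against 1.05 and 0.97) and of the contractile and basal list (3.01 against 3.83 and 3.25) were also lowest on P4 replicate 3. So was the mean of the tested muscle miRNAs (-3.01 against -2.17 and -2.71). The part of these markers in the cluster's difference was not tested.

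Because the members come from 1 host transcript, the start of Mcm7 is shown. RefSeq gives 2 windows for it, each of 250 bases before to 50 after a start. The search was for a loose form of the core bound by E2F factors, TTTNNCGC with N any base, on either strand (GCGNNAAA on the other). It occurs at 2 places in the upstream window and at 0 in the other, and 5.17% of 32851 such windows of mouse genes hold it. The upstream window follows (GRCm38.p6, minus strand), with the matches in capitals. A match of letters is a description and not a measured site.
Mcm7, chr5:138171834-138172133: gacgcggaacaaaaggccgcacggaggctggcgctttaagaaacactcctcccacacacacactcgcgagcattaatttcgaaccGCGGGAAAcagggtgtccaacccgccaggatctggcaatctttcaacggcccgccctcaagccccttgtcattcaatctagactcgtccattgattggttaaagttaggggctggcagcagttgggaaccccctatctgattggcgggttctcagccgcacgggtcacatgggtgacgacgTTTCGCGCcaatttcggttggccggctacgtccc

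The members kept their direction under all 23 alternative settings. The difference of miR-25-3p ran from -1.56 to -0.69 and lost its call in 1 of them, that of miR-93-5p from -1.59 to -0.64 with the call lost in 4, and that of miR-106b-5p from -1.23 to -0.40 with a call in 5. miR-93-5p lost its call without P4 replicate 1 (-0.84, adjusted p = 0.0899, limma).

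**Figure D4:**
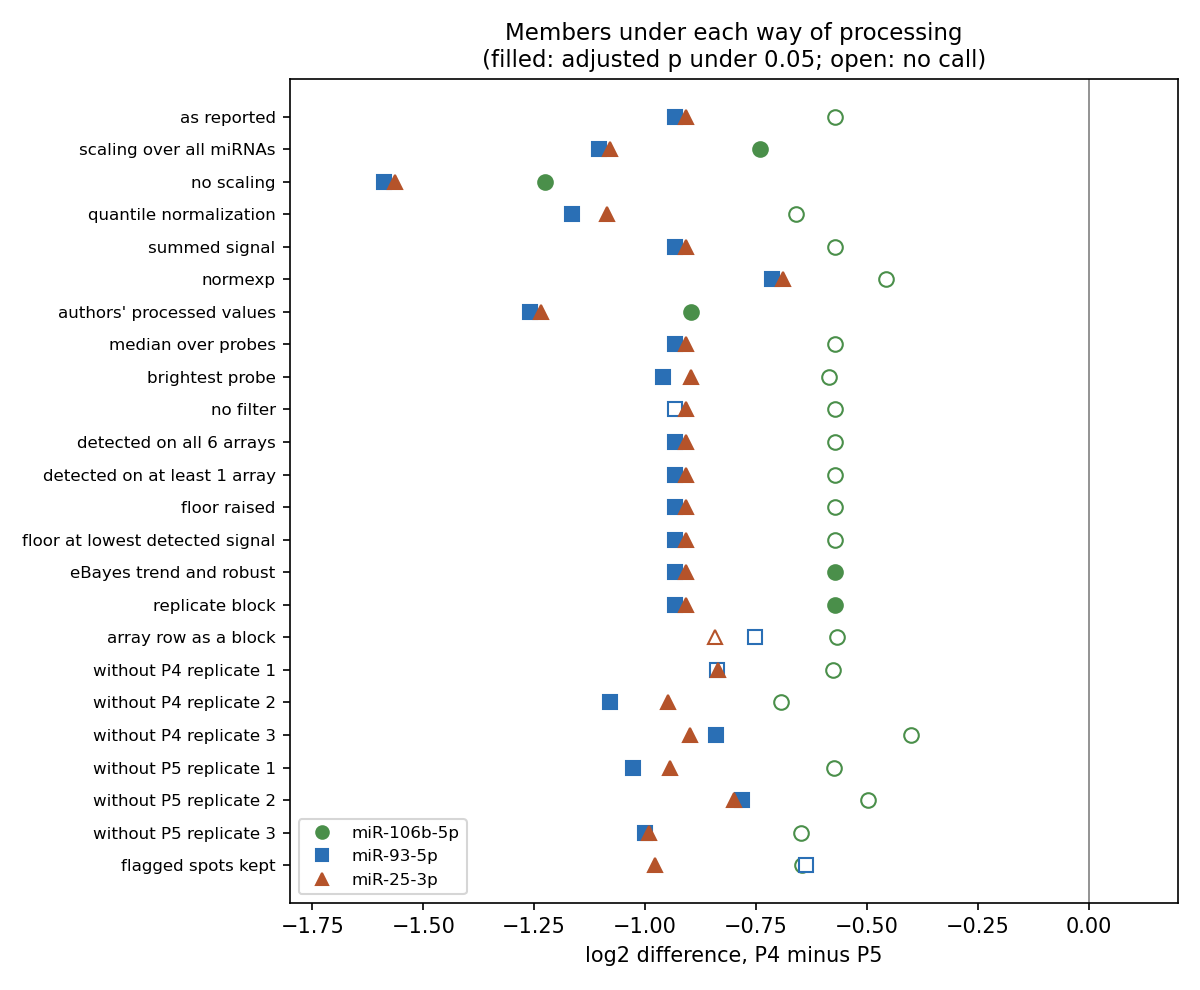
Log2 difference, P4 minus P5 (x axis), of the 3 guide strands under each way of processing (y axis), filled where the adjusted p is under 0.05. Every point lies below 0. The points of miR-93-5p and miR-25-3p are farthest apart with the flagged spots kept, the only setting shown where miR-106b-5p is not the member nearest to 0.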

How the data were processed

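Per the labels' protocols, RNA enriched for miRNA was end-labelled with Cy3 for Agilent arrays. The authors deposited 1 scanner file per array with linear spot intensity. Per the file headers these were written by version 11.0.1.1 of Feature Extraction (11.0 in the submitters' processing notes), with background subtracted and no scaling between arrays. A table of processed log2 values was also deposited by the authors. Its entries match, within 7.8e-06, the log2 of each miRNA's summed signal once an array-wide offset and a miRNA-wide offset are added. The origin of the miRNA-wide offset is unknown, which leaves the centring partly unsettled; scale and direction are those of the scanner files. Column medians were 0.42, -0.36 and -0.06 on P4 replicates 1, 2 and 3, and -0.56, -0.47 and 0.06 on those of P5.

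Control spots and spots with an outlier flag were left out, and processed signals were averaged within probes, then across the probes of a miRNA. Scaling used the array's own 75th percentile, taken over the 293 miRNAs that all arrays detected. Signals were floored at 0.0223, or -5.49 on the log2 scale, before log2 was taken. The floor is the 95th percentile of undetected signal (median of the 6 arrays). No spot was saturated. The 370 miRNAs detected on all 3 arrays of at least 1 population were fitted by lmFit and eBayes of limma 3.58.1 under R 4.3.3 (two-sided, no block) and adjusted by Benjamini-Hochberg, with a threshold of 0.05. Pairs of miRNAs were compared by exact permutation of their within-array differences. The fit was tested on simulated data. The named miRNAs are the members, their opposite strands, seed relatives, paralogue clusters, marker lists and, for each member, the 3 most alike miRNAs; 48 of 49 listed names were on the array. Members and lists were chosen with earlier results of these data known. Shared replicate numbers were taken not to pair the arrays. Alternatives were other scalings, signals, background corrections, probe averages, filters, floors, eBayes settings, blocks and leaving out each array.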

Additional observations from a re-analysis of the deposited data

How the results depend on the processing

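The direction of all 3 members held under every one of the 23 alternatives. miR-106b-5p passed with scaling over all miRNAs (-0.74), no scaling (-1.23), the authors' processed values (-0.90), trend and robust eBayes (-0.57) and the replicate block (-0.57, adjusted p = 0.0462, limma). miR-93-5p did not pass with no filter (-0.93, adjusted p = 0.152), where all 1247 miRNAs were tested, with a block for the array row (-0.75) or with flagged spots kept (-0.64). miR-25-3p did not pass with a block for the array row (-0.84). Leaving out each array gave -0.69 to -0.40 for miR-106b-5p, -1.08 to -0.78 for miR-93-5p and -0.99 to -0.80 for miR-25-3p. With normexp, where eBayes took 1 common variance for all miRNAs, the members were at -0.46, -0.71 and -0.69.

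Of all tested miRNAs, 23 were higher in P4 with no scaling, 25 were lower with normexp, 31 were higher and 81 lower with the authors' processed values, 25 and 22 with no filter and 29 and 23 with a block for the array row. The split of calls also moved with scaling over all miRNAs (47 higher and 77 lower) and no scaling (77 lower). The median difference of all tested miRNAs went from 0.0013 to -0.17 with scaling over all miRNAs, -0.64 with no scaling, 0.29 after normexp, -0.13 after quantile normalization and -0.43 in the authors' processed values. Among the listed miRNAs other than the members, direction turned for miR-155-5p (-0.18 with no scaling and -0.15 with the authors' processed values), miR-16-5p (-0.29 with no scaling) and miR-32-5p (0.046 with normexp); none of these values passed, and the cause was not tested. Deviations of same-numbered arrays correlated at -0.07, 0.37 and 0.086 for replicates 1, 2 and 3. The numbers were not taken as pairs, but these values do not settle whether they pair the arrays. The replicate block changed no other listed call, and gave 54 higher and 57 lower. Weak signal limits miR-32-5p, miR-20a-3p and miR-18a-5p, and the opposite strands of the members could not be tested at all.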
